A study of Caenorhabditis elegans with 2 samples.

Results

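MicroRNA (miRNA) genes of Caenorhabditis elegans were examined for binding of SPR-3, a zinc finger protein, in L4 larvae. The members were the genes of biotype miRNA in the Ensembl release 115 annotation of the WBcel235 (ce11) assembly, 261 of 46890 annotated nuclear genes, taken by annotation alone. Binding was mapped by chromatin immunoprecipitation and sequencing (ChIP-seq) with an anti-GFP antibody in 2 biological replicates of 1 group of whole worms. The worms were strain OP703, which carries the mutation unc-119(tm4063) and the transgene wgIs703, an insertion that holds spr-3 fused to TY1, EGFP and 3xFLAG together with unc-119(+). They were mixed-sex L4 larvae aged 49 hours, synchronised by starving hatched L1 larvae after bleaching, and their chromatin was sonicated to fragments of 200 to 800 bp. Both libraries share this genotype, stage and treatment, so no difference between conditions could be tested. The fusion is carried by 1 transgenic line that adds copies of spr-3 and unc-119, and the cells in which a site was bound cannot be told apart in whole worms.

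A miRNA gene is transcribed into a precursor with a hairpin, which the Drosha and Dicer enzymes cut to a short mature RNA. An Argonaute protein carries that RNA to messenger RNAs that pair with its seed, and the messages are then repressed or degraded. In C. elegans larvae the lin-4 and let-7 miRNAs time the succession of larval cell fates, while the mir-35 and mir-51 families are known for functions in embryonic development. Genes in a tight cluster on 1 strand are often cut from a shared transcript, so a binding site in front of the first hairpin lies in front of the whole cluster.

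The deposited data were lists of intervals, each with a summit and a signal that the authors' peak caller gave for ChIP against control. Each replicate and the pool of both had a list of 30000 candidates, which by design includes background, and a further list held 945 summits that passed the authors' reproducibility threshold. The thresholded summits were the 945 pooled candidates of highest signal, with a lowest signal of 138.0. How the signal was scaled to depth was not stated in the labels or file headers, and the files hold no read counts. Signals were therefore read within a list, and libraries were set side by side by rank, with rank 1 the highest signal. A miRNA gene was counted as having a candidate where a summit lay between 1000 bp upstream of its annotated 5′ end and its 3′ end. Positions are given in bp from the 5′ end, negative upstream.

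The mature sequences shown first are those of the families whose genes carried thresholded summits, of let-7 and lin-4, and of mir-253, the gene with the highest signal. They are read 5′ to 3′ from the RefSeq annotation and genome of WBcel235, and capitals mark the seed, bases 2 to 8. The GAGGUAG seed joins let-7, mir-48, mir-84, mir-241 and mir-795, and 4 of these are shown.
let-7 5p: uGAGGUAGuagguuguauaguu
mir-48 5p: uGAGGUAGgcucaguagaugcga
mir-84 5p: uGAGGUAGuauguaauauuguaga
mir-241 5p: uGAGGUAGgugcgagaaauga
lin-4 5p: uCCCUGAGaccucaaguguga
mir-51 5p: uACCCGUAgcuccuauccauguu
mir-52 5p: cACCCGUAcauauguuuccgugcu
mir-53 5p: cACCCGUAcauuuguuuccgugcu
mir-54 3p: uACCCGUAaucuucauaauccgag
mir-55 3p: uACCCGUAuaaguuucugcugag
mir-56 3p: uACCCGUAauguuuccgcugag
mir-35 3p: uCACCGGGuggaaacuagcagu
mir-41 3p: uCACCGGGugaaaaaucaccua
mir-80 3p: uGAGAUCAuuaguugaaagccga
mir-253 5p: cUUUUCACacaccucacuaaca
The ACCCGUA seed joins mir-51 to mir-56, where it lies on the 5p arm of mir-51, mir-52 and mir-53 and on the 3p arm of mir-54, mir-55 and mir-56. The CACCGGG seed joins mir-35 to mir-42, and 2 of its 8 members are shown. All 261 genes were matched to RefSeq by gene ID, and 260 of them had an annotated mature arm.

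The bound DNA is shown for 5 thresholded summits, those of mir-253, of 2 mir-51 family loci, of mir-241 and of the mir-35 cluster. Each run is the 150 bp around the summit on the plus strand of WBcel235 (ce11), credited to the RefSeq copy of that assembly. The mir-253 run is chrV:5780834-5780983, the mir-54 to mir-56 run is chrX:13145302-13145451, the mir-51 run is chrIV:11026095-11026244, the mir-241 run is chrV:14366658-14366807 and the mir-35 run is chrII:11537308-11537457. Capitals mark GACGC on either strand (GCGTC where it lies on the minus strand).
mir-253: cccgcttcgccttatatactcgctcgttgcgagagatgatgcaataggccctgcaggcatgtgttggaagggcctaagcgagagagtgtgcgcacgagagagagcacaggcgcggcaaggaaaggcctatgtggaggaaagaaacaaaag
mir-54 to mir-56: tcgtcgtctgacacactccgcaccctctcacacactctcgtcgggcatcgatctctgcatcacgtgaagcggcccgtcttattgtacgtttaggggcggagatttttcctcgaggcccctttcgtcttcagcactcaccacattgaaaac
mir-51: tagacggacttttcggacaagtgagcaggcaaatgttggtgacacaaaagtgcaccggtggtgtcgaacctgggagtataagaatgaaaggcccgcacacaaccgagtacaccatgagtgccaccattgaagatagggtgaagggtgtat
mir-241: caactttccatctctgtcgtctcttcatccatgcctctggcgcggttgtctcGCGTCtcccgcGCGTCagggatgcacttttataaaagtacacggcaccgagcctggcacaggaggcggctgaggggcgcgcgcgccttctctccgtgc
mir-35 to mir-41: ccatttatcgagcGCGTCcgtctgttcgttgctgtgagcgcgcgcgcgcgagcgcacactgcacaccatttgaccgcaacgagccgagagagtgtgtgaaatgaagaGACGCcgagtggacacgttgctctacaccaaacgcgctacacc
The letters GACGC were searched because they had been noted in these same peaks before, on both strands, together with GAGACGCA and GCGCCAGC. The second of these words contains the first. The word GACGC was found in 2 of the 12 distinct thresholded summits at miRNA genes, mir-241 and the mir-35 cluster, each with 2 matches, against 303 of all 945 (32.1%). GAGACGCA was in 75 of the 945 (7.94%) and GCGCCAGC in 41 (4.34%), and neither was in any of the 12. The GC content of the 12 windows had a median of 47.7% (38% to 62%), against 47.3% over all 945.

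A pooled candidate lay in the window of 121 of the 261 miRNA genes (46.4%). Over all nuclear genes the same count gave 37.4%, although most other genes are longer than a hairpin and so have longer windows. In the other direction, 15363 piRNA genes of median length 21 bp lower the all-gene share, with 5.92%. Protein-coding genes had 59.7%, above the miRNA share. A thresholded summit lay in the window of 20 miRNA genes (7.66%), against 3.21% of all nuclear genes, 4.22% of protein-coding genes and 0.189% of piRNA genes. When the window of every gene was stopped 95 bp past its 5′ end, the median length of a miRNA gene, the miRNA shares stayed at 46.4% and 7.66% while those of all nuclear genes were 23.5% and 2.48%. These shares are a description, since neighbouring genes share summits and 1 group of worms was measured. The piRNA genes are part of every all-gene share.

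Among gene classes with the equal window, miRNA genes lay between protein-coding genes and the classes with the most summits. Of 19973 protein-coding genes, 29.9% had a pooled candidate and 2.75% a thresholded summit. Of 612 tRNA genes, 72.4% had a pooled candidate and 29.6% a thresholded summit, and of 346 snoRNA genes the shares were 60.4% and 25.1%. For 129 snRNA genes the shares were 29.5% and 7.75%, the second of which is close to the miRNA value. The piRNA genes, 15363 short genes of another small RNA pathway, had 6.13% and 0.195%. A tRNA, snRNA or snoRNA gene lay within 200 bp of 1 of the 102 distinct pooled summits at miRNA genes, and of none of the 12 thresholded ones.

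**Figure D1:**
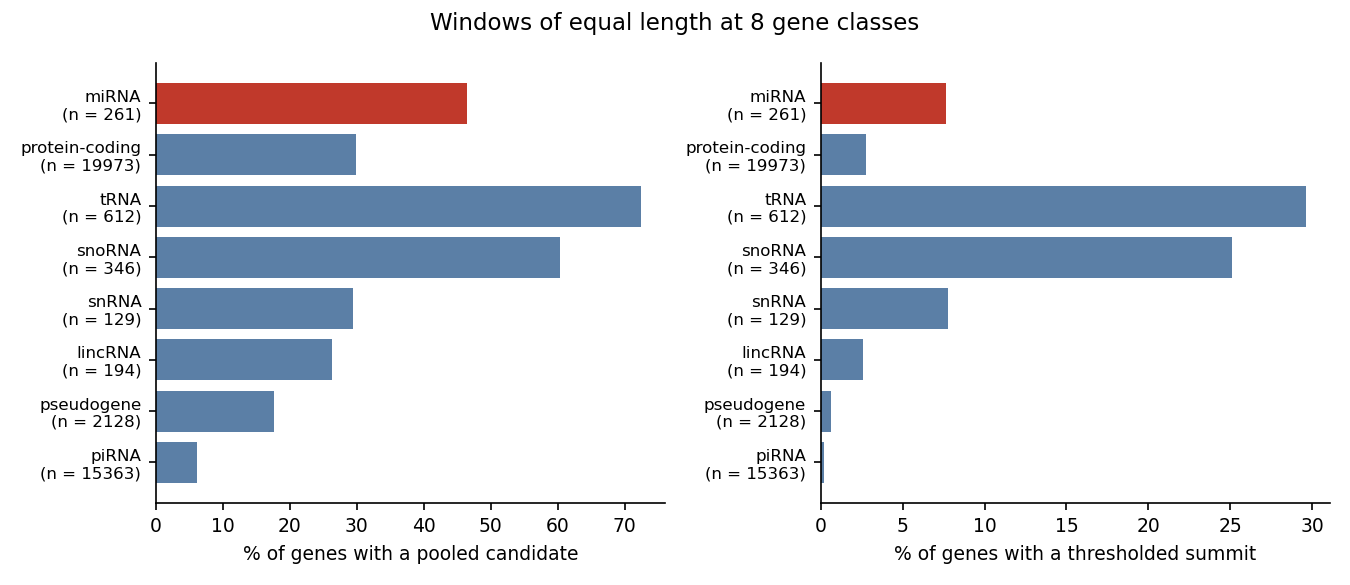
Share of genes with a summit in a window from 1000 bp upstream to 95 bp past the 5′ end, for 8 gene classes (x axes in percent of genes, n beside each class; left pooled candidates, right thresholded summits). The red miRNA bars stand at 46.4% and 7.66%, above protein-coding genes at 29.9% and 2.75% and below tRNA genes at 72.4% and 29.6%.

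The 20 genes with a thresholded summit rested on 12 distinct summits, because 7 genes of the mir-35 cluster shared 1 and mir-54, mir-55 and mir-56 shared another. Each cluster of miRNA genes on 1 strand with starts under 10 kb apart was then counted once. By this count 12 of 209 loci (5.74%) had a thresholded summit and 95 (45.5%) a pooled candidate. A cluster joins several windows, so these shares have no all-gene share of like kind beside them. The highest pooled signal per gene ran from 43.8 to 952.0 over the 121 genes. Its median was 76.5, against a median of 69.0 over all 17548 nuclear genes with a candidate. In replicate 1 the median of the miRNA genes was 38.2, slightly under the 38.4 of all nuclear genes with a candidate. In replicate 2 it was 43.5 against 38.2. The all-gene medians are over windows to the 3′ end, many of them longer than those of miRNA genes, and no equal-window median was made. The 121 genes rest on 102 distinct pooled summits. Over the 20 genes with a thresholded summit the median was 154.1, against 192.1 for the 1504 nuclear genes concerned, and 7 of the 20 are the mir-35 cluster genes with their shared value. Over the 12 distinct summits the median was 175.4, and 6 of the 12 were at or above the median of the thresholded list, 183.7. The authors' −log10 q-values of the 12 summits lay between 1.69 and 3.10.

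**Figure D2:**
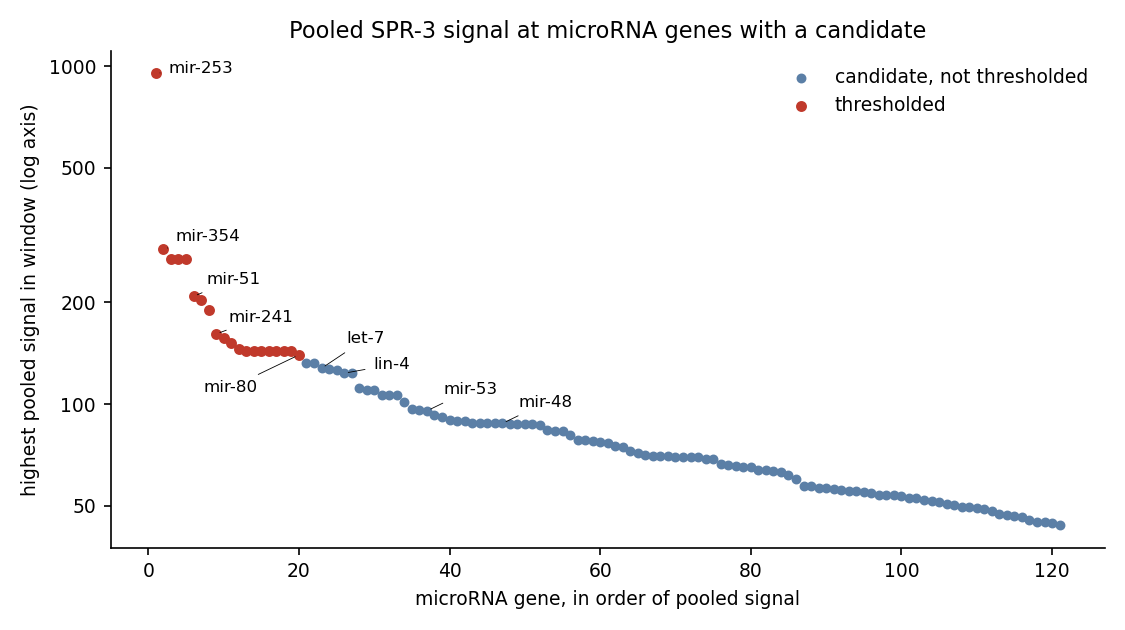
Highest pooled signal in the window (y axis, log scale, the authors' value) of the 121 miRNA genes with a pooled candidate, in descending order (x axis, order of the gene), red where the summit was thresholded. The signal drops from 952.0 at mir-253 to 287.4 at mir-354, and mir-80 at 139.8 is the lowest thresholded gene.

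The genes that time larval development are described first. The 5 let-7 family genes all had a pooled candidate, and 1 of them, mir-241, had a thresholded summit. At mir-241, which acts with mir-48 and mir-84 on early larval cell fates, the pooled signal was 161.1 (rank 643), with 80.1 (rank 766) in replicate 1 and 90.9 (rank 572) in replicate 2. The interval chrV:14366518-14366947 is intergenic and its summit lay at -450 bp from the 5′ end of mir-241. The replicate summits were at -530 and -375 bp, on either side of the pooled one.

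The neighbour mir-48 is transcribed from the same strand in a span of 1872 bp with mir-241. Its highest pooled candidate had a signal of 87.6 (rank 4341) at -437 bp, and the candidates at this site had 55.7 (rank 2606) in replicate 1 and 31.9 (rank 17074) in replicate 2. Replicate 1 had a higher candidate of 71.6 (rank 1056) at -201 bp. The site was not in the thresholded set, and the replicates ranked it apart. On the X chromosome, mir-84 had a pooled signal of 51.9 (rank 21201), with 25.4 (rank 28204) and 33.6 (rank 14879) in replicates 1 and 2. The pooled and replicate 1 values are in the lower part of their lists, the replicate 1 one at -811 bp rather than at the pooled summit, and the replicate 2 value is close to its list median of 33.5. The pooled signal of mir-795, another gene with the let-7 seed, was 69.5 (rank 9774).

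let-7, whose loss lets larval fates repeat in the hypodermis, had a pooled candidate of signal 127.6 (rank 1179), under the lowest thresholded signal of 138.0. In replicate 1 a candidate of signal 110.5 (rank 329) had its summit 4 bp away. In replicate 2 no candidate lay in the let-7 window, and the nearest summit was 2508 bp away with a signal of 49.0 (rank 4406). The let-7 value therefore rests on replicate 1. The annotated gene, chrX:14743590-14745321 on the minus strand, is 1732 bp long and covers more than the hairpin, and the summit at 659 bp lay within it, 407 bp upstream of the mature RNA. It was also in the promoter window of the protein-coding gene C05G5.7.

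lin-4, which represses lin-14 and lin-28 early in larval development, had a pooled signal of 123.4 (rank 1313) at -483 bp. The signals were 66.0 (rank 1405) in replicate 1 and 54.7 (rank 2940) in replicate 2, so both libraries held a candidate of moderate rank. The gene, chrII:5902254-5902347, lies in an intron of F59G1.4 on the same strand. mir-237, which shares the seed of lin-4, had no candidate in any of the 3 candidate lists.

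**Figure D3:**
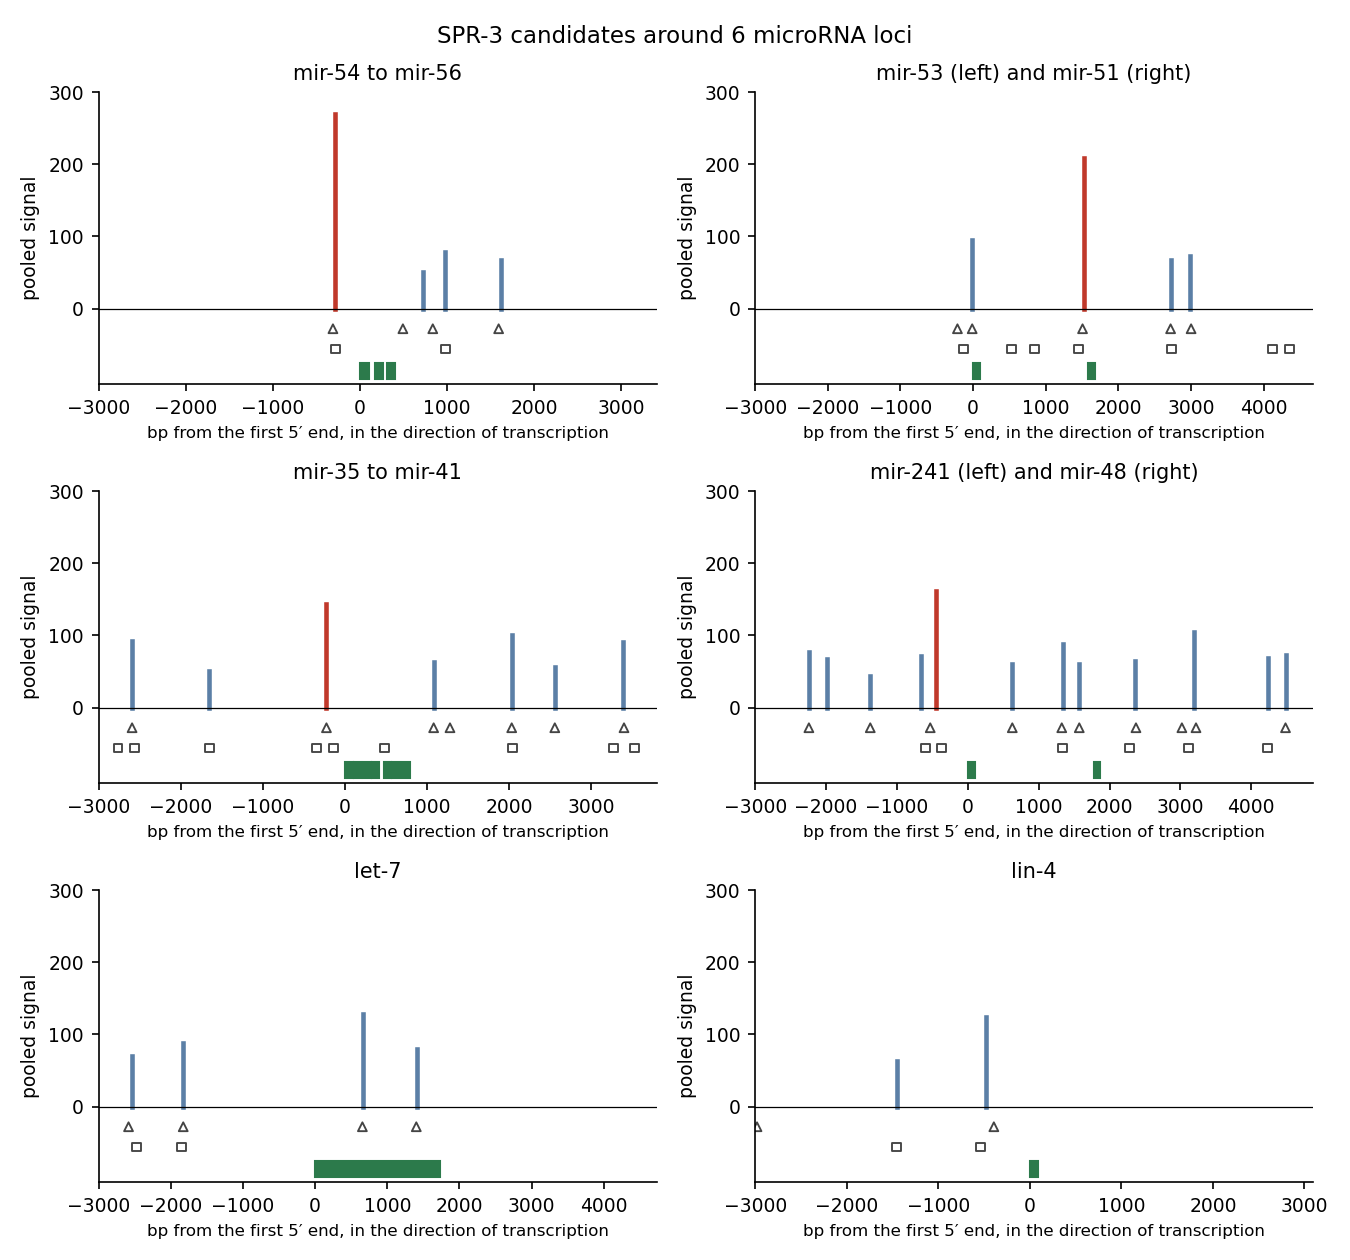
Pooled candidate summits around 6 miRNA loci. The x axes give bp from the annotated 5′ end of the first gene in the direction of transcription. For let-7 this is the 5′ end of the 1732 bp annotated gene, and the line at 659 bp lies 407 bp upstream of the mature RNA. The y axes give pooled signal as line height, red where thresholded. Triangles and squares are summits of replicates 1 and 2, and green marks annotated genes. The red lines stand before the first hairpin of mir-54 to mir-56 (269.1), mir-35 to mir-41 (143.3) and mir-241 (161.1) and before mir-51 (208.2), and no square lies near the let-7 line of 127.6.

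The mir-51 family had a candidate at each of its 6 genes in the pool and in both replicates, and 5 of the 6 genes had a thresholded summit, from 3 distinct summits. The mir-54, mir-55 and mir-56 cluster spans 404 bp on the minus strand of the X chromosome, in an intron of F09A5.3, which is on the opposite strand. A summit at -283 bp from mir-54, in chrX:13145162-13145591, had a pooled signal of 269.1 (rank 181), with 124.4 (rank 237) in replicate 1 and 142.3 (rank 172) in replicate 2. Both replicate summits were within 28 bp of the pooled one. The locus ranked in the first 945 of every candidate list.

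mir-51 and mir-53 lie 1679 bp end to end on chromosome IV, mir-53 first, and their values differed. At mir-51 the pooled signal was 208.2 (rank 345) at -58 bp, in chrIV:11025955-11026384, with 96.2 (rank 482) and 103.4 (rank 400) in replicates 1 and 2. At mir-53 it was 95.5 (rank 3168) at -19 bp, with 81.6 (rank 714) in replicate 1 and 28.5 (rank 22309) in replicate 2. Replicate 1 thus placed the mir-53 candidate among its first 945, while replicate 2 placed it in the lower part of its list.

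mir-52, chrIV:14034008-14034107, had a pooled signal of 203.3 (rank 368) at -5 bp, in chrIV:14033788-14034217. In replicate 2 the signal was 111.9 (rank 321) at the same position. In replicate 1 the overlapping candidate had a signal of 108.6 (rank 345), but its summit was 112 bp downstream of the pooled one, just past the 3′ end of the gene. Inside the window, the highest replicate 1 candidate of mir-52 was 69.3 (rank 1194) at -780 bp. A further thresholded summit of signal 155.0 (rank 710) lay at 248 bp, past the 3′ end.

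The mir-35 family, known for its part in embryonic development, had a pooled candidate at 8 of 8 genes and a thresholded summit at 7. The 7 genes mir-35 to mir-41 span 797 bp on chromosome II, in an intron of Y62F5A.9 on the opposite strand, and shared the interval chrII:11537168-11537597. Its summit, from -225 bp at mir-35 to -925 bp at mir-41, had a pooled signal of 143.3 (rank 864), just above the lowest thresholded signal. In replicate 1 the signal was 78.2 (rank 822) at the same base. In replicate 2 the nearest candidate, 85 bp away, had a signal of 30.5 (rank 19132), and the highest in the window of mir-35 was 62.3 (rank 1856) at -342 bp. The 7 genes are 1 site, and its rank differed between the libraries. The 8th gene, mir-42, lies in a cluster with mir-43 and mir-44 that shared a pooled signal of 87.9 (rank 4288).

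The bantam-related mir-58 and mir-80 genes, which are among the most abundant miRNAs of the worm, had signals on both sides of the threshold. At mir-80 the pooled signal was 139.8 (rank 913) at -214 bp, in the intergenic interval chrIII:8865366-8865795, with 58.7 (rank 2144) in replicate 1 and 86.5 (rank 648) in replicate 2. This was the lowest value among the thresholded miRNA genes. mir-80 ends an 8815 bp cluster with mir-90 and mir-238, which had separate summits with pooled signals of 127.4 (rank 1187) and 92.6 (rank 3512). Another thresholded summit of signal 148.9 (rank 788) lay inside the cluster, 861 bp past the 5′ end of mir-90 and in the window of none of its genes, with ranks of 759 and 873 in replicates 1 and 2.

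mir-58a had a pooled signal of 123.2 (rank 1317), and the candidates at its summit had 30.6 (rank 19258) in replicate 1 and 96.9 (rank 484) in replicate 2. The adjoining mir-58b and mir-58c shared a candidate of pooled signal 110.3 (rank 1879). The GAGAUCA seed of mir-80 is shared by mir-58b, mir-58c, mir-2209a, mir-81 and mir-82, whereas mir-58a has the seed GAGAUCG. A pooled candidate lay at 4 of the 6 genes with GAGAUCA, the lowest at mir-2209a with 83.3 (rank 5232). The other members, mir-81 and mir-82 on the X chromosome, had none in any of the 3 candidate lists.

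The remaining thresholded miRNA genes were single. The highest signal at any miRNA gene was at mir-253, chrV:5780510-5780616, with 952.0 (rank 4) in the pool, 513.6 (rank 4) in replicate 1 and 436.3 (rank 5) in replicate 2. The 3 lists placed it within their first 5 candidates with summits within 1 bp of each other. mir-253 lies in an intron of the protein-coding gene F44E7.5 on the same strand, and the summit at -293 bp was also 13 bp downstream of the 5′ end of F44E7.5. A further thresholded summit of signal 165.6 (rank 605) lay at 485 bp, past the 3′ end of mir-253. Which of the genes the main site belongs to cannot be told apart from the position.

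For mir-354, mir-353 and mir-5549 the summit likewise lay in promoter windows of protein-coding genes. At mir-354 the pooled signal was 287.4 (rank 147), with 148.5 (rank 157) and 135.5 (rank 190) in replicates 1 and 2, and its summit at -868 bp was shared with the promoters of rps-20, a ribosomal protein gene, and ekl-4. At mir-353 the pooled signal was 145.9 (rank 821), with 91.3 (rank 548) and 58.6 (rank 2267), at -964 bp and in the promoters of the ribosomal protein genes rpl-24.1 and rps-10. At mir-5549 it was 189.6 (rank 441), with 98.4 (rank 458) and 83.9 (rank 711), at -25 bp and in the promoters of eef-1A.1, a translation elongation factor gene, and rfc-4, a replication factor C subunit gene. For mir-354 and mir-353 the coding promoters were closer to the summit than the hairpin, whereas for mir-5549 the hairpin was the closer.

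At mir-2214, in an intron of B0361.11 on the same strand, the pooled signal was 156.8 (rank 684) at -6 bp, with 108.3 (rank 348) in replicate 1 and 41.7 (rank 7798) in replicate 2. At mir-4929 it was 151.4 (rank 752) at -162 bp, in an exon of E01G4.3, with 56.0 (rank 2550) in replicate 1 and 98.6 (rank 462) in replicate 2. Each of these was within the first 945 candidates of 1 replicate and outside them in the other.

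Just below the lowest thresholded signal lay mir-239a and mir-239b, divergent genes on the X chromosome that shared a candidate of pooled signal 132.1 (rank 1060). Replicate 1 gave it 37.4 (rank 11256) and replicate 2 gave 94.0 (rank 523), and the snoRNA gene C34E11.20 lay within 200 bp of the summit. The next gene after let-7 and mir-90 was mir-5595, in an intron of the chromatin remodelling gene nurf-1 on the opposite strand, at 126.0 (rank 1238). Among genes picked for their known roles after their values were seen, mir-34, linked to stress responses, had 106.3 (rank 2131), the neuronal mir-124 had 72.8 (rank 8430) and the muscle miRNA mir-1 had 69.9 (rank 9625). lsy-6, which sets the left-right difference of a pair of taste neurons, had no candidate in the 3 candidate lists.

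The replicates were compared over all members. A candidate lay in the window of 120 miRNA genes (46%) in replicate 1, against 38.3% of all nuclear genes, and of 119 (45.6%) in replicate 2, against 38.3%. In 90 (34.5%) both replicates had one, against 28.5% of all nuclear genes. A further 30 had one in replicate 1 alone, 29 in replicate 2 alone, and 108 (41.4%) had none in the 3 candidate lists. The all-gene shares include the piRNA genes, with 6.78% in replicate 1, 6.99% in replicate 2 and 3.42% in both. Protein-coding genes, with longer windows, had 60.8%, 61.1% and 48.4% in this order, above the miRNA shares. With the equal window they had 29.1%, 30.5% and 17.9%, below the miRNA shares of 45.6%, 46% and 34.5%. All 20 thresholded genes had a candidate in both replicates, and the authors made the thresholded set from the replicate and pooled lists together.

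Over the 90 genes the ranks of the replicates had a Spearman's rho of 0.549. Over the 70 distinct summits with overlapping candidates in both replicates rho was 0.453. These are descriptions, since genes share summits and the same control file served both libraries. Of the 12 distinct thresholded summits, 10 were within the first 945 candidates of replicate 1, 9 of replicate 2 and 7 of both. The highest candidates without any pooled candidate in the window were at mir-49 (44.8), mir-4816 (43.4) and mir-789-1 (35.6) in replicate 1, and at mir-789-1 (39.9), mir-4812 (37.5) and mir-8205 (36.5) in replicate 2.

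**Figure D4:**
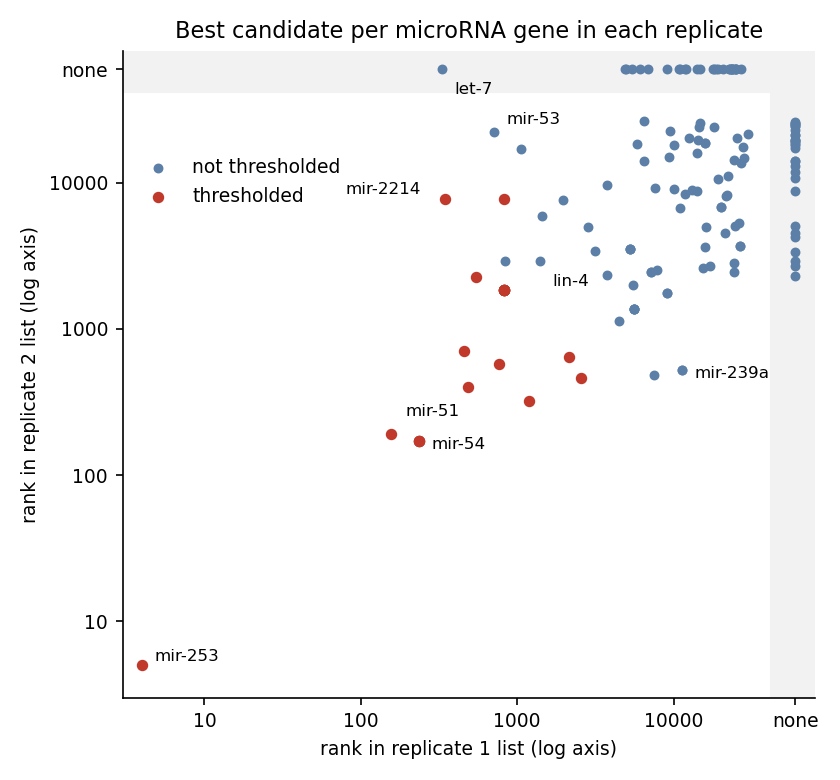
Rank of the best candidate in the window in replicate 1 (x axis, log scale) and replicate 2 (y axis, log scale), 1 point per miRNA gene, red where the pooled summit was thresholded; the grey zones hold genes without a candidate in that replicate. mir-253 stands at ranks 4 and 5, and let-7 at rank 329 in replicate 1 with none in replicate 2.

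The best summits lay mostly upstream of the hairpins, which the window, reaching 1000 bp upstream of genes with a median length of 95 bp, favours. Of the 121 genes with a pooled candidate, the best summit was within the annotated gene for 14, from 1 to 250 bp upstream for 37, from 251 to 500 bp for 29, from 501 to 750 bp for 21 and from 751 to 1000 bp for 20. The thresholded best summits numbered 0, 7, 6, 3 and 4 in the same order. The count of genes fell with distance in the pooled set, where the 4 upstream bins are equal in length.

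**Figure D5:**
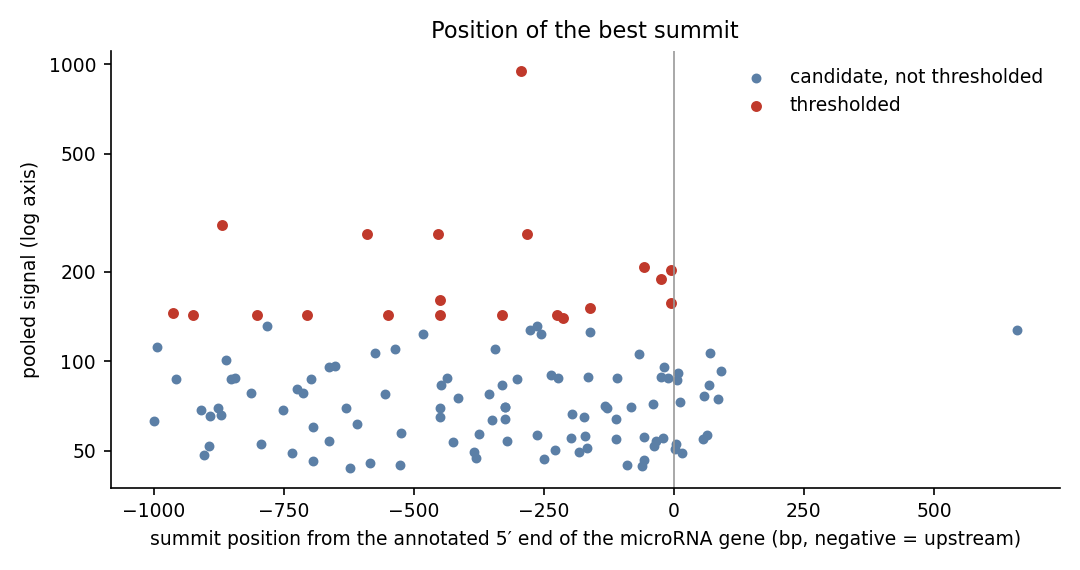
Pooled signal (y axis, log scale) against position of the best summit from the annotated 5′ end (x axis, bp, negative upstream), 1 point per miRNA gene with a pooled candidate, red where thresholded. No thresholded best summit lies within a miRNA gene, and the thresholded summit nearest to a 5′ end is that of mir-52, at -5 bp.

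The 12 distinct thresholded summits comprised 4 in promoter windows of protein-coding genes (1000 bp upstream to 200 bp downstream of a 5′ end), 1 in an exon, 3 in introns and 4 in intergenic DNA. Among the 102 distinct pooled summits the counts were 21, 11, 32 and 38. Of the 85 miRNA genes whose window overlapped such a promoter, 32 (37.6%) had a pooled candidate and 5 (5.88%) a thresholded summit. Of the 176 whose window was free of them, 89 (50.6%) had a pooled candidate and 15 (8.52%) a thresholded summit. Shared summits weigh on this order, since the 15 genes rest on 7 distinct summits and the 5 genes on 5. By location of the hairpin, a pooled candidate was found at 56 of 152 intergenic miRNA genes (36.8%), 42 of 67 in an intron on the same strand (62.7%) and 16 of 30 in an intron on the opposite strand (53.3%). It was 7 of 12 for those that overlap an exon (58.3%). No like share by location or promoter overlap was made over other genes, so whether these differences are particular to miRNA genes was not tested. The thresholded counts were 5, 4, 10 and 1 in this order, and the 10 came from 2 summits, those of the mir-35 and mir-54 clusters.

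Clusters were described as units. Of 29 clusters that held 81 genes, 18 had a pooled candidate and 5 a thresholded summit. A cluster joins the windows of its genes, and no share over clusters of other genes was made, so these are counts only. Of the 9 with 3 or more genes, 7 had a pooled candidate and 3 a thresholded summit, namely mir-35 to mir-41, mir-54 to mir-56, and mir-90, mir-238 and mir-80. The cluster of mir-229, mir-64, mir-65 and mir-66 shared a candidate of 87.2 (rank 4426), mir-73, mir-74 and mir-75 had 53.8 to 65.1, and 3 of 4 genes from mir-2208a to mir-2209c had 70.3 to 83.3. An 11-gene cluster of 7573 bp on the X chromosome, from mir-4807 to mir-4921, had no pooled candidate.

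Genes of small RNA processing, Argonaute complexes and turnover were described from a list of 22 symbols, of which 21 were found in the annotation. Of the 21, 17 (81%) had a pooled candidate and 5 (23.8%) a thresholded summit. These genes are long (median 4401 bp), and with windows running to the 3′ end 59.7% and 4.22% of protein-coding genes, of median length 2027 bp, had the same. Among the 3890 protein-coding genes of at least 4401 bp the shares were 83.7% and 7.76%, so the pooled share of the list is near that of long genes. Those genes have a median of 6897.5 bp and so are not matched to the list in length. All 5 thresholded best summits lay upstream of the 5′ end within 1000 bp, in the gene's own promoter window.

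vig-1, whose Drosophila relative is part of the silencing complex, had a pooled signal of 541.3 (rank 35) at -429 bp, with 241.0 (rank 52) and 299.0 (rank 17) in replicates 1 and 2. ifet-1, a translational repressor, had 520.0 (rank 39) at -505 bp, with 256.8 (rank 43) and 260.1 (rank 33), and its summit was also in the promoter window of the ribosomal protein gene rps-1. nhl-2, a cofactor of let-7 in the worm, had 402.8 (rank 68) at -809 bp, with 216.8 (rank 67) and 181.2 (rank 89), and shared its summit with tag-340. These 3 had higher pooled signals than any miRNA gene other than mir-253.

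ain-1, the GW182-type partner of the Argonautes, had 214.1 (rank 331), with ranks of 240 and 435 in replicates 1 and 2. xrn-2, an exoribonuclease that degrades mature miRNAs, had 164.9 (rank 612) at -3 bp, with ranks of 1678 and 350. The core processing and Argonaute genes were lower. The Drosha gene drsh-1 had 70.4 (rank 9381) at 148 bp, and the Dicer gene dcr-1 73.0 (rank 8344) in an intron at 6722 bp. The Argonaute gene alg-1 had 84.9 (rank 4879) at -698 bp, and alg-2 had 73.4 (rank 8182) in an exon at 6140 bp. pash-1, rde-4, paxt-1 and dcs-1 had no pooled candidate.

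A second list held 15 genes around lin-4 and let-7, not all of them direct regulators or targets. Of these, 15 had a pooled candidate and 3 (20%) a thresholded summit, in genes of median length 6555 bp. Among the 2100 protein-coding genes of at least that length, of median 9770.5 bp and so longer than the list, the shares were 87.5% and 8.67%. lin-42, a Period homologue that restrains miRNA transcription, had a pooled signal of 199.2 (rank 384) in an intron at 5330 bp. let-526, a chromatin remodelling subunit gene, had 195.2 (rank 411) in an intron at 4219 bp, and lin-46, a gene that acts after lin-28, had 166.5 (rank 596) at -829 bp. Of the targets of the timing miRNAs, lin-14 had 125.2 (rank 1263) among 21 candidates, lin-28 106.4 (rank 2120), lin-41 79.4 (rank 6192) and hbl-1 72.0 (rank 8703), all below the lowest thresholded signal.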

How the data were processed

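Per the labels and file headers, ChIP-seq was done in 2 biological replicates of 1 group, and the authors deposited candidate intervals for each replicate and for the pool, made against 1 shared control file, and a thresholded set from an irreproducible discovery rate analysis, on ce11. Each interval has a signal value, a −log10 q-value and a summit offset, all computed by the authors. Neither the labels nor the file headers name the aligner, the peak caller or the threshold. The 4 lists hold no read counts, so the depth is unknown and counting intervals were not computed.

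Chromosome names and the ends of the intervals fell within the lengths of WBcel235. In replicate 2, 1 summit lay outside its interval. Summits were assigned to genes by window, with shared summits counted for each gene. Python 3.11.15, pandas 2.3.3, numpy 2.4.6 and matplotlib 3.10.9 were used, and the assignment was tested on simulated data. Replicate values of miRNA genes are the highest candidate in the window unless the overlapping one is named. No test was made, since there is 1 group. Named genes were those with a thresholded summit, the 25 of highest pooled signal, the let-7, lin-4, mir-51, mir-52 and mir-53 neighbourhoods, and clusters of 3 or more. Other seed relatives are named as family members. Members and lists were chosen with earlier results of these data known. Other windows, filters and each replicate alone were tried.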

Additional observations from a re-analysis of the deposited data

How the results depend on the processing

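The counts of 121 miRNA genes with a pooled candidate, 20 with a thresholded summit and 90 with a candidate in both replicates were recomputed under 10 other settings, and 18 of the 25 values stayed within 1.5 times. With a window from 500 bp upstream the thresholded count was 13 and the count in both replicates 55. With 200 bp on both sides of the gene the 3 counts were 65, 5 and 33. With candidates at or above the median signal of their list, both replicates had one at 52 genes, and in the upper part of the thresholded set 8 genes had a summit. These settings are narrower or stricter by construction. The all-gene shares were not recomputed under any of the other settings, so whether the miRNA shares still exceeded them was not tested. Without replicate 1 the pooled count became 119 and the count among the highest 945 became 14, and without replicate 2 they became 120 and 20, and 11 and 17 of the 20 thresholded genes were shared. A window from 2000 bp upstream gave 152, 26 and 122. Without the windows that overlap coding promoters, 89, 15 and 70 of 176 genes remained. No paired analysis was possible because the labels give 1 group. The unknown depth, the shared control and the 1 transgenic line limit every value.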

Other observations

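The counts were also split by gene name, a split chosen after the values were seen. Names with a number under 1000, together with let-7, lin-4 and lsy-6, covered 137 genes, of which 81 (59.1%) had a pooled candidate and 17 (12.4%) a thresholded summit, from 9 distinct summits. Names with a number of 1000 or more covered 123 genes, of which 40 (32.5%) had a pooled candidate and 3 (2.44%) a thresholded summit, namely mir-5549, mir-2214 and mir-4929, from 3 distinct summits. These 123 include the 11-gene cluster from mir-4807 to mir-4921, which had no pooled candidate. The remaining gene has a name of neither kind. With the equal window, all nuclear genes, piRNA genes included, had 23.5% and 2.48%, and protein-coding genes 29.9% and 2.75%. The difference was not tested.

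The X chromosome holds 74 miRNA genes, of which 24 (32.4%) had a pooled candidate, against 97 of 187 (51.9%) on the autosomes. The 11-gene cluster from mir-4807 to mir-4921 is among the X genes without one. With the window stopped after the 5′ end, protein-coding genes had 29.9% on the X chromosome and 29.9% on the autosomes, and all nuclear genes had 33.1% and 22.1%. The X chromosome holds only 6022 nuclear genes, so most of the 15363 piRNA genes (6.13%) are autosomal and lower the second of these all-gene shares. The thresholded share of miRNA genes was 3 of 74 (4.05%) on the X chromosome, from the 1 summit of mir-54 to mir-56, and 17 of 187 (9.09%) on the autosomes. The 17 include the 7 genes of the mir-35 cluster, which share 1 summit. No thresholded share of other genes was made by chromosome. No test of these differences was made.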
